A study of Mus musculus with 6 samples.

Results

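The genes that copy DNA in S phase were examined here in HC11 cells, an established mouse mammary epithelial line, after stimulation with the signaling protein BMP7. The set holds 49 genes chosen by name for their function: origin licensing, activation of the replicative helicase, the sliding clamp and its loader, the polymerases, joining of Okazaki fragments, supply of nucleotides, entry into S phase and assembly of chromatin behind the fork. All 49 were found by symbol among the 55809 genes counted, and all passed the expression filter, which left 15733 genes for testing. The RNA came from HC11 cells in medium to which BMP7 was added (BMP7, 3 libraries) or from which it was left out (Ctrl, 3 libraries). No genotype was changed in either group. The methods describe starvation of HC11 cells before BMP7 was given and more than 1 stimulation time, and the time used for sequencing is not given in the sources used here. The labels do not say whether the libraries of a group came from separate cultures, so the p-values measure the spread between these libraries, which may be technical. The BMP7 libraries are named 1, 3 and 4 after the numbers in the count table.

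A replication origin is licensed in G1, when the origin recognition complex, Cdc6 and Cdt1 load the Mcm2 to Mcm7 ring onto DNA. In S phase, Cdc45 and the GINS complex turn the ring into a helicase, polymerase alpha with its primase starts each strand, polymerase epsilon extends the leading strand and polymerase delta the lagging strand, held to DNA by the clamp Pcna. Many of these genes are transcribed by E2F factors as cells pass from G1 into S phase, so their mRNA is widely used as a readout of proliferation. In mammary epithelium they are known to follow the growth phases of the gland. The data were read here for how their mRNA stood with and without BMP7.

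Letters of the E2F type were looked for in the promoters. Promoter windows of RefSeq (GRCm38.p6, 250 bases before to 50 after a gene's start) were given for 40 of the 49 genes and were searched on both strands for the E2F-type motifs TTTCCCGC, TTTCGCGC, TTTGCCGC and TTTGGCGC. At least 1 match lay in 16 of the 40 (40.0%), against 704 of 27025 genes with a window (2.605%). A match describes letters, not a bound site. Below are the 250 bases before the start of *Cdc6*, which had the largest decrease of the set, of *Mcm5* and *Mcm6*, subunits of the helicase ring whose matches overlap, and of *Pold2*, the gene that rose. Each is written in the direction of the gene with matches in capitals. *Cdc6* lies at chr11:98907901-98908150 (plus strand), *Mcm5* at chr8:75109259-75109508 (plus), *Mcm6* at chr1:128359706-128359955 (minus) and *Pold2* at chr11:5878257-5878506 (minus, the outermost of its 2 starts).
Cdc6: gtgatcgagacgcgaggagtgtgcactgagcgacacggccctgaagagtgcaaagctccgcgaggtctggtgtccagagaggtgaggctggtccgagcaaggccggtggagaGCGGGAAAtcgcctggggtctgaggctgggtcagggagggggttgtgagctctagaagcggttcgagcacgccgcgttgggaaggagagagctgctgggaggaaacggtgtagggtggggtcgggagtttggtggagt
Mcm5: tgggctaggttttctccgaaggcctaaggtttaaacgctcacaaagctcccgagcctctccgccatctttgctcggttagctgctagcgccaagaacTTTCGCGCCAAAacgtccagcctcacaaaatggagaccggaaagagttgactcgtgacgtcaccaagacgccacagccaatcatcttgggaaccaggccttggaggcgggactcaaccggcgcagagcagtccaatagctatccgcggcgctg
Mcm6: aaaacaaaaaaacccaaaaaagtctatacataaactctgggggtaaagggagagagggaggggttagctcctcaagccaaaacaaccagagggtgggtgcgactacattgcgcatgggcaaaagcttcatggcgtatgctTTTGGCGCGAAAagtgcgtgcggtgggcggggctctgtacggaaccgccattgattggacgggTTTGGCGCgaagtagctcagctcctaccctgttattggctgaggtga
Pold2: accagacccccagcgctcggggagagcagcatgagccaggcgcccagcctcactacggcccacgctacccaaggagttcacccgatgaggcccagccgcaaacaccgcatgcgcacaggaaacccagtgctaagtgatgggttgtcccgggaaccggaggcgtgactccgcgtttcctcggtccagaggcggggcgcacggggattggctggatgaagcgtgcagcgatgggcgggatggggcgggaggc
In *Cdc6* the 1 match, TTTCCCGC on the opposite strand, began 138 bases before the start. In *Mcm5*, TTTCGCGC at 153 bases before the start overlapped TTTGGCGC read from the opposite strand. *Mcm6* carried such a pair at 110 and 106 bases and a further TTTGGCGC at 47 bases before the start. None of these letters were found in *Pold2*. The motifs were most frequent among the licensing genes, with a match in 7 of 9, and were found in 4 of 7 polymerase and primase genes and in none of the 5 genes of nucleotide supply.

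Between 14607938 and 23748970 fragments were counted per library, with the fewest in BMP7 1. *Epcam* and *Cdh1*, which mark epithelium, were abundant in Ctrl (291 ± 3.61 and 215 ± 2.53 FPKM, fragments per kilobase of exon and 1000000 counted, SD, n = 3). The basal keratin *Krt14* stood at 1985 ± 71.5 FPKM and the luminal keratins *Krt8* and *Krt18* at 32.3 ± 2.34 and 34.4 ± 1.01 FPKM, although the study uses HC11 as a luminal line. With BMP7, *Krt18*, *Epcam* and *Cdh1* fell (log2 fold changes -0.67, -0.42 and -0.27), each past both thresholds of the test used below. *Trp63*, a basal transcription factor, and *Krt14* rose past both (0.64 and 0.43). The luminal keratin *Krt8* (0.09) and a further basal keratin, *Krt5* (-0.03), were not called. The part of these marker changes in the replication genes was not tested. Libraries BMP7 3 and 4 stood apart in genes of other cell types. The 11 adipocyte markers summed to 91.0 and 79.3 CPM (counts per 1000000) in them, against 34.7 in BMP7 1 and 22.1 to 33.1 in Ctrl. The 11 macrophage markers summed to 26.0 and 24.6 CPM, against 51.6 in BMP7 1 and 49.003 to 53.3 in Ctrl. The 6 fibroblast markers summed to 98.7 to 123 CPM over all libraries, with *Col1a1* lower with BMP7 and *Col1a2* and *Dcn* higher (log2 fold changes -0.41, 1.65 and 1.67). *Dcn* had 4.44 and 4.90 CPM in BMP7 3 and 4, 1.74 CPM in BMP7 1 and 0.737 to 1.73 CPM in Ctrl. The 3 endothelial markers summed to 24.0 to 26.2 CPM with BMP7 and 13.2 to 15.8 in Ctrl, almost all of it *Pecam1*, while *Kdr* was at or under 3 counts everywhere. No marker of these lists was at 0 in all libraries.

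With BMP7, 6 replication genes fell, 1 rose, and 42 did not pass the test. A gene was called at an adjusted p under 0.05 in edgeR's quasi-likelihood test and a fold change over 1.2. Those that fell were *Cdc6*, *Dut*, *Chaf1b*, *Pold1*, *Pole* and *E2f2*, by 18.0 to 29.6%, and *Pold2* rose by 43.4%. The 6 are 12.2% of the set, where 5.38% of all genes tested were called lower, and the 1 is 2.04%, where 5.99% were called higher. DESeq2 called the same 7 genes. At an unadjusted p under 0.05, 23 of the 49 were lower and 2 higher, against 13.1% of all genes tested in each direction. By adjusted p alone, 11 of the 49 were lower (22.4%, against 6.42% of all genes) and 1 higher (against 7.33%). All BMP7 libraries lay below all Ctrl libraries for 22 genes (44.9%, against 15.1% of all genes) and above them for 2, *Pold2* and *Pole2* (against 14.8%).

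Changes were small across the set. The median log2 fold change was -0.16, with quartiles of -0.23 and -0.09, while the median of all genes tested was -0.01, with quartiles of -0.16 and 0.13. The estimate was negative for 42 of the 49 genes (85.7%), against 51.4% of all genes. Of the 42 genes that were not called, 11 had a 95% confidence interval within a 1.2-fold change in either direction and 31 had one that reached past it. In RNA from a whole culture, fewer cells in S phase and less of each mRNA per cell cannot be told apart.

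**Figure D1:**
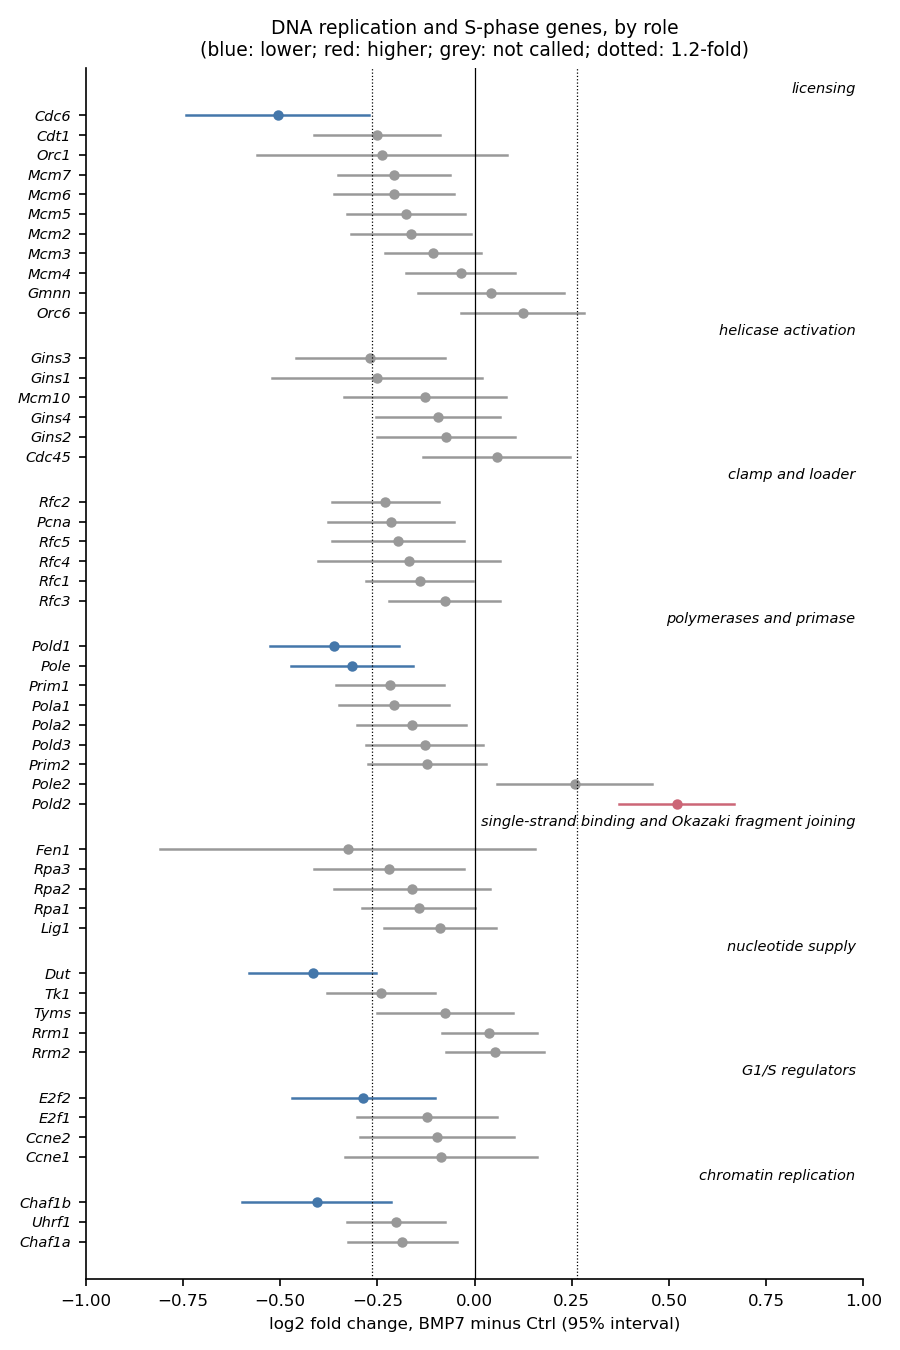
Log2 fold change (BMP7 over Ctrl) of each of the 49 replication genes, grouped by role, with bars for the 95% confidence interval of edgeR's quasi-likelihood fit. Blue marks genes called lower, red higher and grey not called, and dotted lines a 1.2-fold change. Points for 42 genes lie left of 0, and of the called genes only *Pold2*, at 0.52, lies to the right.

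Origin licensing held the gene with the largest decrease. *Cdc6*, the loader of the Mcm ring (chr11:98798627-98814766, mm39), had 14.5, 14.1 and 13.1 CPM in Ctrl and 10.5, 9.73 and 9.20 CPM in BMP7 1, 3 and 4. Every BMP7 library was below every Ctrl library. The mean fell from 13.9 ± 0.710 CPM in Ctrl to 9.80 ± 0.630 CPM with BMP7 (SD, n = 3 each), which was -0.51 on the log2 scale (SE 0.11, adjusted p = 0.00522 in edgeR's quasi-likelihood test). *Cdt1*, its partner in loading, had 63.5, 67.6 and 67.0 CPM in Ctrl and 62.4, 50.9 and 53.6 CPM with BMP7. The groups did not overlap, but BMP7 1 was just below the lowest Ctrl library. Its log2 fold change of -0.25 (SE 0.08) passed by adjusted p (0.0379, edgeR) and was under the fold required.

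The 6 subunits of the Mcm2 to Mcm7 ring all had negative estimates, between -0.21 and -0.04 with a median of -0.17, where 51.4% of all genes had one. None was called by edgeR or DESeq2. At an unadjusted p under 0.05 in edgeR, 4 were lower, against 13.1% of all genes tested. *Mcm7* had 114, 114 and 109 CPM in Ctrl and 107, 90.5 and 95.1 CPM with BMP7 (log2 fold change -0.21, adjusted p = 0.0525 in edgeR's quasi-likelihood test). *Mcm5* had 184, 188 and 183 CPM in Ctrl and 183, 148 and 161 CPM with BMP7 (-0.18, adjusted p = 0.12, edgeR). In both genes, BMP7 1 was close to the Ctrl libraries and BMP7 3 and 4 were lower. The origin recognition subunits differed in sign. *Orc1* had an estimate of -0.24, while *Orc6*, the highest of the licensing genes, had 44.3, 46.4 and 49.8 CPM in Ctrl and 53.9, 52.3 and 47.0 CPM with BMP7 (0.12, adjusted p = 0.317, edgeR), with groups that overlapped. *Gmnn*, whose product geminin binds Cdt1 and blocks a further round of licensing, was at 0.04.

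Among the helicase activators, none of 6 was called by edgeR or DESeq2. At an unadjusted p under 0.05 in edgeR, 1 was lower, against 13.1% of all genes tested. *Gins3*, a GINS subunit, had 19.7, 20.2 and 19.9 CPM in Ctrl and 16.5, 15.9 and 17.2 CPM with BMP7 (log2 fold change -0.27, adjusted p = 0.0613 in edgeR's quasi-likelihood test). The 3 Ctrl values were nearly equal and all BMP7 values were below them. *Cdc45*, the other partner of the Mcm ring, had 36.5, 32.1 and 36.3 CPM in Ctrl and 41.3, 33.4 and 34.9 CPM with BMP7 (0.06, adjusted p = 0.746, edgeR). Its groups overlapped. The estimates of *Gins1*, *Mcm10*, *Gins4* and *Gins2* were -0.25, -0.13, -0.09 and -0.07.

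None of the 6 clamp and clamp loader genes was called by edgeR or DESeq2. At an unadjusted p under 0.05 in edgeR, 4 were lower, against 13.1% of all genes tested. All 6 estimates were negative, against 51.4% of those of all genes. *Pcna*, the clamp, had 45.2, 47.3 and 42.5 CPM in Ctrl and 42.3, 37.4 and 36.9 CPM with BMP7 (log2 fold change -0.22, adjusted p = 0.0751 in edgeR's quasi-likelihood test). *Rfc2*, a loader subunit, had 81.3, 75.8 and 74.3 CPM in Ctrl and 68.5, 63.3 and 65.7 CPM with BMP7 (-0.23, adjusted p = 0.0267, edgeR), under the fold required. Both genes were lower in every BMP7 library than in any Ctrl library. *Rfc3* had 91.7, 90.7 and 92.0 CPM in Ctrl and 95.3, 82.4 and 83.1 CPM with BMP7 (-0.08, adjusted p = 0.519, edgeR). Here BMP7 1 was the highest of the 6 libraries. *Rfc5*, *Rfc4* and *Rfc1* were at -0.20, -0.17 and -0.14.

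The polymerases gave calls in both directions, and within polymerase delta the catalytic and an accessory subunit moved oppositely. *Pold1*, the catalytic subunit (chr7:44182170-44198273), had 53.5, 48.9 and 53.0 CPM in Ctrl and 43.7, 36.5 and 41.3 CPM with BMP7. Its mean fell from 51.8 ± 2.51 CPM in Ctrl to 40.5 ± 3.67 CPM with BMP7 (SD, n = 3 each), which was -0.36 on the log2 scale (SE 0.08, adjusted p = 0.00467 in edgeR's quasi-likelihood test). *Pold2*, which joins the catalytic subunit to the rest of the enzyme (chr11:5822180-5828292), had 78.9, 88.6 and 85.2 CPM in Ctrl and 131, 119 and 113 CPM with BMP7. Each BMP7 library exceeded every Ctrl library, with BMP7 1 the highest. Its mean rose from 84.2 ± 4.92 CPM in Ctrl to 121 ± 8.997 CPM with BMP7, which was 0.52 on the log2 scale (SE 0.07, adjusted p = 5.96e-05, edgeR). The accessory subunit *Pold3* was at -0.13. The 95% interval of *Pold2* (0.37 to 0.67) lay wholly above 0 and that of *Pold1* (-0.53 to -0.20) wholly below it. Per length, *Pold2* was the second most abundant gene of the set in Ctrl (44.4 ± 2.60 FPKM) after *Mcm5* (46.3 ± 0.604 FPKM), and stood at 63.7 ± 4.75 FPKM with BMP7.

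*Pole*, the catalytic subunit of polymerase epsilon (chr5:110434172-110485340), had 64.6, 71.6 and 68.0 CPM in Ctrl and 58.9, 49.9 and 55.8 CPM with BMP7. The groups did not overlap. The mean fell from 68.1 ± 3.52 CPM in Ctrl to 54.9 ± 4.56 CPM with BMP7 (SD, n = 3 each), which was -0.31 on the log2 scale (SE 0.07, adjusted p = 0.00836 in edgeR's quasi-likelihood test). The call was lost without Ctrl 2 (adjusted p = 0.0633, edgeR) or without BMP7 3 (0.0577). Its partner subunit *Pole2* had 15.6, 16.4 and 16.6 CPM in Ctrl and 17.9, 20.1 and 19.9 CPM with BMP7, higher in all BMP7 libraries, at 0.26 (adjusted p = 0.0852, edgeR). The primase gene *Prim1* (-0.22, adjusted p = 0.0371, edgeR) passed by adjusted p and missed the fold. *Pola1*, *Pola2* and *Prim2*, of the same complex, were at -0.21, -0.16 and -0.12.

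Single-strand binding and Okazaki fragment joining held no call by edgeR or DESeq2. Of its 5 estimates 5 were negative, against 51.4% of those of all genes. At an unadjusted p under 0.05 in edgeR, 1 of the 5 was lower, against 13.1% of all genes tested. *Rpa3*, *Rpa2* and *Rpa1*, which coat single-stranded DNA, were at -0.22, -0.16 and -0.14. *Lig1*, the ligase that seals the fragments, had 127, 130 and 122 CPM in Ctrl and 131, 115 and 111 CPM with BMP7 (log2 fold change -0.09, adjusted p = 0.452 in edgeR's quasi-likelihood test), with overlapping groups. *Fen1*, the nuclease that trims their ends, was the least abundant of the set at 1.19 ± 0.127 FPKM in Ctrl (SD, n = 3). It had 3.13, 3.00 and 2.54 CPM in Ctrl and 2.23, 1.96 and 2.75 CPM with BMP7 (-0.33, SE 0.23, adjusted p = 0.40, edgeR). The value of *Fen1* rests on 32 to 65 counts a library. Of its exon bases, 84.2% also belong to *Tmem258* or *Gm10143* on the opposite strand, where fragments assigned to more than 1 gene were not counted.

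In nucleotide supply, 1 of 5 genes fell, where 5.38% of all genes tested were called lower. *Dut*, the dUTPase that keeps uracil out of DNA (chr2:125089110-125100528), had 36.6, 36.8 and 35.6 CPM in Ctrl and 27.3, 25.5 and 29.0 CPM with BMP7. The highest BMP7 library was well below the lowest Ctrl library. The mean fell from 36.3 ± 0.670 CPM in Ctrl to 27.3 ± 1.75 CPM with BMP7 (SD, n = 3 each), which was -0.42 on the log2 scale (SE 0.08, adjusted p = 0.00138 in edgeR's quasi-likelihood test). *Tk1*, the thymidine kinase of the salvage route, had 165, 184 and 178 CPM in Ctrl and 159, 143 and 145 CPM with BMP7 (-0.24, adjusted p = 0.0202, edgeR), under the fold required, although no BMP7 library reached the Ctrl range. The 2 subunits of ribonucleotide reductase, which makes deoxynucleotides, stayed near 0. *Rrm2* had 111, 106 and 111 CPM in Ctrl and 118, 110 and 113 CPM with BMP7, at 0.05 with a 95% interval from -0.07 to 0.18. *Rrm1* was at 0.04 with an interval from -0.08 to 0.16, so for both a 1.2-fold change in either direction was outside the interval. *Tyms*, the thymidylate synthase, was at -0.08.

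Of the 4 G1/S regulators, *E2f2*, an E2F factor that activates these promoters (chr4:135899705-135923368), had 33.8, 37.9 and 41.4 CPM in Ctrl and 29.4, 30.0 and 33.2 CPM with BMP7. The highest BMP7 library was just below the lowest Ctrl library. The mean fell from 37.7 ± 3.81 CPM in Ctrl to 30.9 ± 2.04 CPM with BMP7 (SD, n = 3 each), which was -0.29 on the log2 scale (SE 0.09, adjusted p = 0.0372 in edgeR's quasi-likelihood test). This was the weakest of the calls. It was lost without Ctrl 2 (adjusted p = 0.119, edgeR), Ctrl 3 (0.183), BMP7 1 (0.101) or BMP7 3 (0.127). *E2f1* was at -0.12, and the cyclins *Ccne2* and *Ccne1*, which drive entry into S phase, at -0.10 and -0.09. *Ccne1* had 13.2, 16.6 and 14.8 CPM in Ctrl and 15.1, 14.6 and 12.3 CPM with BMP7, and its groups overlapped.

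Chromatin assembly behind the fork held 3 genes. In each of them all BMP7 libraries were below all Ctrl libraries, which held for 15.1% of all genes tested. *Chaf1b*, a subunit of the histone chaperone CAF-1 (chr16:93680789-93703003), had 44.5, 55.6 and 52.8 CPM in Ctrl and 42.6, 38.0 and 35.0 CPM with BMP7. The mean fell from 51.0 ± 5.75 CPM in Ctrl to 38.6 ± 3.80 CPM with BMP7 (SD, n = 3 each), which was -0.41 on the log2 scale (SE 0.09, adjusted p = 0.006 in edgeR's quasi-likelihood test). Without Ctrl 2, the highest library, the adjusted p was 0.0557 (edgeR). *Chaf1a*, the large subunit, had 59.1, 58.3 and 59.0 CPM in Ctrl and 54.8, 51.4 and 49.1 CPM with BMP7 (-0.19, adjusted p = 0.0763, edgeR). *Uhrf1*, which brings the maintenance DNA methyltransferase to new DNA, had 98.0, 99.2 and 96.9 CPM in Ctrl and 84.3, 88.1 and 83.3 CPM with BMP7 (-0.20, adjusted p = 0.0318, edgeR), under the fold required.

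**Figure D2:**
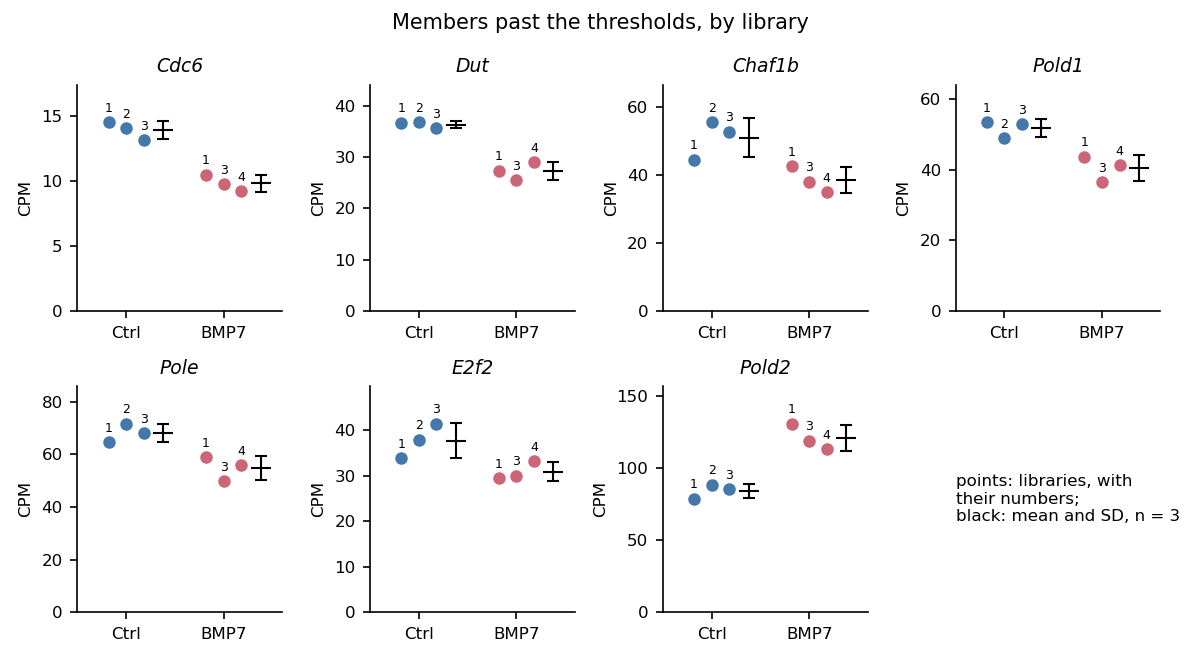
CPM (from 0) in each library for the 7 called replication genes, with numbered points for 3 Ctrl and 3 BMP7 libraries and black bars for the mean and SD. No BMP7 point of *Cdc6*, *Dut*, *Chaf1b*, *Pold1*, *Pole* or *E2f2* reaches the Ctrl points, and those of *Pold2* (113 to 131 CPM) lie above its Ctrl points (78.9 to 88.6 CPM).

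The lower levels were less marked in BMP7 1 than in BMP7 3 and 4. Measured against the Ctrl mean, the median log2 ratio over the 49 genes was -0.08 in BMP7 1, -0.22 in BMP7 3 and -0.18 in BMP7 4, and lay between -0.03 and 0.03 in the Ctrl libraries. The median over all genes tested was within 0.01 of 0 in each library. BMP7 1 was the highest of the BMP7 libraries for 35 of the 49 genes, BMP7 3 for 6 and BMP7 4 for 8, where each took 33.0 to 33.8% of all genes. The genes below the lowest Ctrl library numbered 27, 38 and 35 in BMP7 1, 3 and 4, against 34.9, 35.3 and 31.3% of all genes. Summed over the set, the level was 777, 803 and 769 FPKM in Ctrl and 778, 712 and 723 FPKM in BMP7 1, 3 and 4, where the sum of BMP7 1 was within the Ctrl range. Without division by length, the sum was 3166, 3274 and 3127 CPM in Ctrl and 3086, 2842 and 2893 CPM in BMP7 1, 3 and 4, where BMP7 1 was below every Ctrl library.

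**Figure D3:**
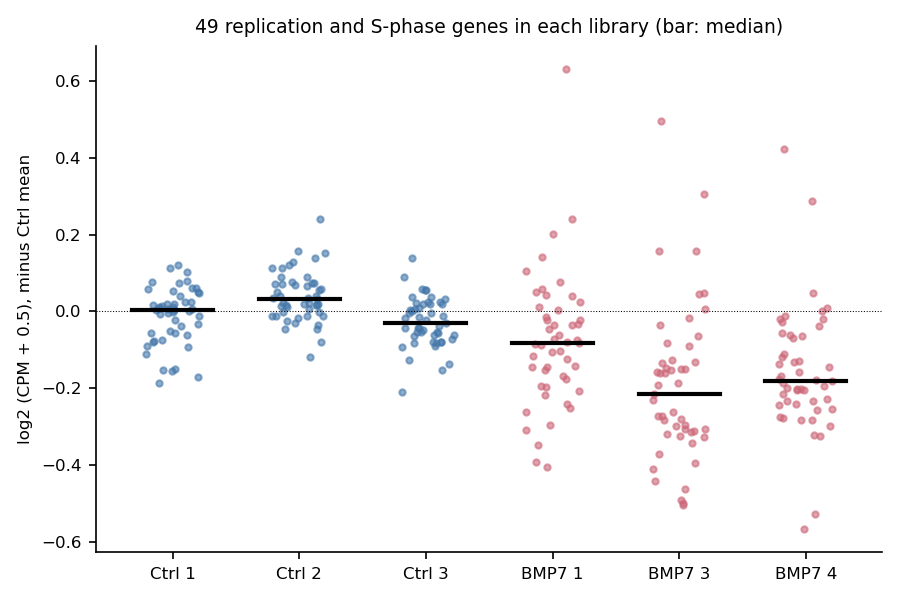
Log2 ratio to the Ctrl mean for the 49 replication genes in each of the 6 libraries, as points with a black bar for the median. The medians of BMP7 3 (-0.22) and BMP7 4 (-0.18) lie further below 0 than that of BMP7 1 (-0.08).

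The replication genes thus moved with the same split as the sums of the adipocyte and macrophage markers, with BMP7 3 and 4 apart from BMP7 1. Not every macrophage marker fell in BMP7 3 and 4, and *Lyz2* was the largest part of that sum in Ctrl. The part of those markers in the result was not tested. With BMP7 1 alone set against Ctrl, a fit added after the marker sums were seen, the spread came from the Ctrl libraries and the lone BMP7 library was assumed to vary like them. In it the median of the set was -0.08 and 37 of the 49 estimates were negative. The log2 fold changes of the called genes in that fit were -0.41 for *Dut*, -0.41 for *Cdc6*, -0.36 for *E2f2*, -0.26 for *Chaf1b*, -0.24 for *Pold1*, -0.21 for *Pole* and 0.64 for *Pold2*. All kept their sign. Under that assumption *Dut* (adjusted p = 0.0256 in edgeR's quasi-likelihood test) and *Pold2* (adjusted p = 0.000166) stayed under the threshold, and the other 5 had adjusted p of 0.101 to 0.227, which says nothing of replicates with BMP7. Without BMP7 1, 10 genes of the set were lower, with *Cdt1*, *Mcm5*, *Mcm7*, *Pcna* and *Tk1* added and *E2f2* lost, and the median was -0.20.

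Gene length was examined because BMP7 1 was related to it. Over all genes tested, the log2 ratio of BMP7 1 to the mean of the other libraries changed by -0.039 with each doubling of exon length (Pearson r = -0.179, Spearman rho = -0.248 over 15733 genes), so longer genes were lower in it, while the slopes of the other 5 libraries lay between 0.001 and 0.013. Over the 49 replication genes the slopes were -0.040 in BMP7 1 (r = -0.239), -0.021 in BMP7 3 (r = -0.104) and -0.025 in BMP7 4 (r = -0.172), and 0.015, 0.029 and 0.042 in Ctrl 1, 2 and 3, so within the set a negative slope was not limited to BMP7 1. Because each library was set against the mean of the others, the slopes of a gene list offset one another and are not independent. These are correlations across genes that share libraries and are given as a description. The replication genes were of ordinary length, with a median of 3993 bases (range 1136 to 11160) against 3751 for all genes tested.

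Length did not separate the replication genes that were higher in BMP7 1. The difference between BMP7 1 and the mean of BMP7 3 and 4 had a median of 0.12 on the log2 scale over the set and was positive for 36 of 49 genes, against a median of -0.004 and 7707 of 15733 for all genes. It was 0.12 for the 25 genes at or under the median length and 0.13 for the 24 longer ones, with 18 positive in each. Its correlation with length was -0.093 over the set and -0.182 over all genes. When each library's relation to length was removed with offsets in the fit, the same 6 genes fell and *Pold2* rose. The fold changes of the 49 genes shifted by between -0.02 and 0.04, and the median stayed at -0.16.

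**Figure D4:**
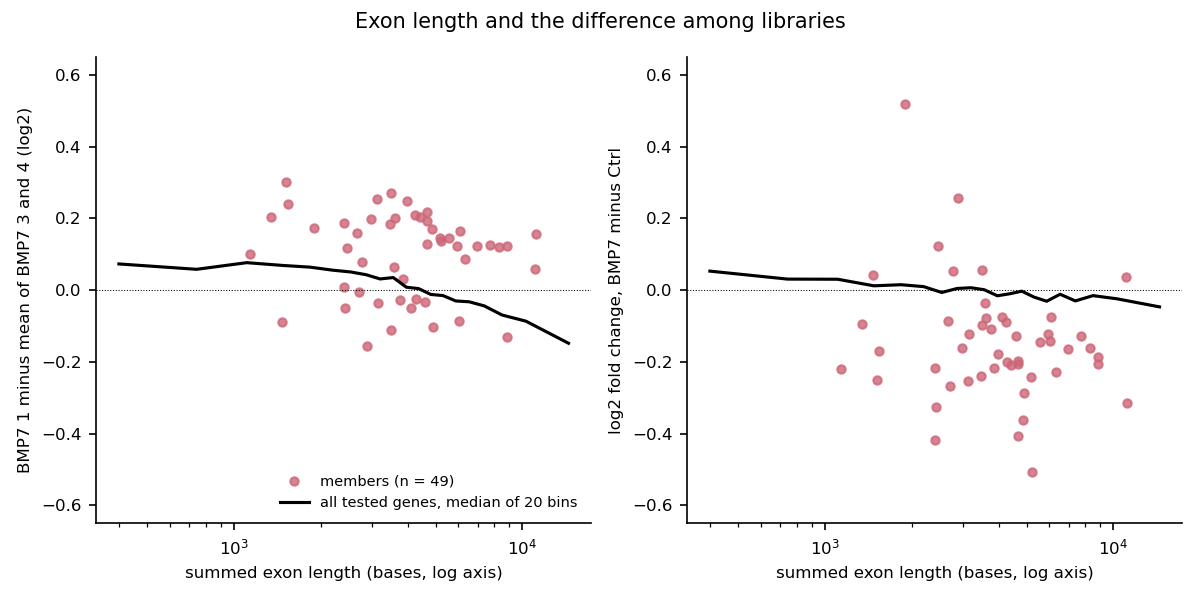
Log2 difference between BMP7 1 and the mean of BMP7 3 and 4 (left) and log2 fold change with BMP7 (right) against exon length in bases (log axis), with 1 point for each of the 49 replication genes and a line for the medians of all genes tested in 20 bins of length. On the left the line falls with length, while the points lie mostly above 0 among shorter and longer genes (18 of 25 and 18 of 24), and on the right 42 of 49 points lie below 0.

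Of 64 further genes of replication, its checkpoint, nucleotide metabolism and E2F regulation, 8 fell (12.5%, against 5.38% of all genes tested). In the same list 2 rose (3.125%, against 5.99%). Estimates were negative for 46 (71.9%, against 51.4% of all genes), with a median log2 fold change of -0.05, where that of all genes was -0.01. Those that fell included *Dna2* (-0.57), a nuclease and helicase of Okazaki fragment processing, *Cdca7* (-0.51), *Shmt1* (-0.50), a folate enzyme of thymidylate synthesis, *Dscc1* (-0.49), of an alternative clamp loader, *Recql4* (-0.47), *Cdc7* (-0.42), the kinase that starts origin firing, and *Wdhd1* (-0.34). The adjusted p of these genes in edgeR's quasi-likelihood test ran from 0.00198 to 0.0379. *Samhd1*, which breaks down deoxynucleotides, had 88.5, 94.2 and 86.1 CPM in Ctrl and 271, 318 and 255 CPM with BMP7. Its log2 fold change of 1.65 (SE 0.08, adjusted p = 3.18e-10, edgeR) was larger than that of any gene of the set of 49. *E2f5*, a repressive E2F factor, rose by 0.31 on the same scale (adjusted p = 0.0441, edgeR). Of the genes of deoxynucleotide metabolism named here, *Dut* and *Shmt1* were thus lower and *Samhd1* higher. *Rrm1*, *Rrm2*, *Tk1* and *Tyms* of the set, and *Dck*, *Dtymk* and *Rrm2b* of the further genes, were not called.

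Among 24 genes of mitosis, none fell by edgeR or DESeq2. In edgeR 2 rose (8.33%, against 5.99% of all genes tested), while 5.38% of all genes were called lower. The 2 were *Ube2c* (log2 fold change 0.41, adjusted p = 0.00417 in edgeR's quasi-likelihood test), of the ubiquitin ligase that ends mitosis, and the kinase *Plk1* (0.31, adjusted p = 0.0138). At an unadjusted p under 0.05, 11 were higher and 0 lower (13.1% of all genes in each direction). Their median was 0.12, against -0.16 for the replication genes and -0.01 for all genes tested. Estimates were positive for 19 of the 24, and for 7651 of the 15733 genes tested. The difference between the lists was not tested. Of 64 replication-dependent histone genes, whose mRNA lacks a poly(A) tail and was largely left behind by the selection of poly(A) RNA, 57 had a count and 10 were tested. None was called by edgeR, with 1 higher and 0 lower at an unadjusted p under 0.05 (13.1% of all genes in each direction).

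**Figure D5:**
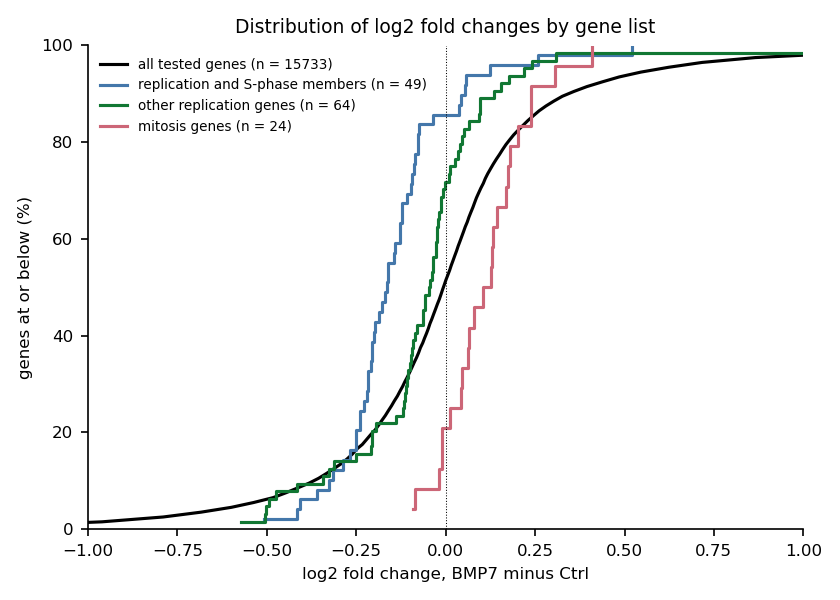
Log2 fold changes (BMP7 over Ctrl) of the 49 replication genes, the 64 other replication genes, the 24 mitosis genes and all genes tested, drawn as the percent of each list at or below each value. The curve of the 49 lies to the left of that of all genes over most of its course (medians -0.16 and -0.01), that of the mitosis genes starts to the right (median 0.12), and *Samhd1* (1.65) lies beyond the axis.

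The promoters carrying an E2F-type motif were not limited to the genes that changed. A match was found in 3 of the 5 genes that fell and have a window (*Cdc6*, *Pold1* and *E2f2*) and in 13 of the 34 that were not called. The median log2 fold change was -0.21 over the 16 genes with a match and -0.16 over the 24 without. Of the genes whose BMP7 libraries all lay below Ctrl, 10 of 19 had a match, and of those with overlapping groups 5 of 19. The motifs were also found in 17 of 53 other replication genes (32.1%) and in 1 of 20 mitosis genes (5.0%).

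Some values are uncertain because of how fragments were assigned. Strand was not used in counting, and 18 of the 49 genes share exon bases with another gene, 3 of them over 50% of their length (*Fen1*, *Gins2* with 67.3% and *Chaf1a* with 52.5%). Of the 7 called genes, *Pole* shares 0.699% and the others none. Fragments that match another transcript equally well were not counted either. In *Mcm7*, 72.8% of the transcript was matched by *Gm5487* at 95% identity or more over 100 bases. In *Pcna* 51.4% was matched by *Pcna-ps2*, and in *Rfc5* 59.2% by 11 other genes together, none of which alone matched over 36.5%. Such matches need not be equal, so these are not the shares of fragments left uncounted. The matches of *Fen1* and *Gins2* were the overlapping genes themselves. Among the called genes, *Cdc6* has 33.0% of its transcript in *Gm9430*, which can lower its count in all libraries.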

How the data were processed

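Poly(A) RNA of HC11 cells was sequenced in 3 Ctrl and 3 BMP7 libraries. The authors aligned read pairs with Subread 2.0.3 and deposited raw counts per gene, made with featureCounts 2.0.1 per the file header, together with exon length. The header names an mm39 annotation and the methods mm10, and coordinates are those of the deposited table. Strand was not used, and fragments assigned to several genes or places were not counted, which lowers genes with copies or overlaps.

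In R 4.3.3, edgeR 4.0.16 was run with its expression filter, TMM scaling and the quasi-likelihood test over 15733 genes, with Benjamini-Hochberg adjustment over all of them. Calls needed an adjusted p under 0.05 and a fold over 1.2, as in the study. SE is the log2 fold change over the square root of F. CPM and FPKM use TMM library sizes. Library ratios add 0.5 CPM. Copies were searched with BLAST 2.17.0 at 95% identity over 100 bases among GENCODE transcripts of GRCm38, which is not the deposited annotation. Promoters come from RefSeq. The scripts were tested on simulated counts.

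Libraries were grouped by their labels. Named in full are called genes, the lowest and highest of each role, and genes whose call an alternative changed. Of the other lists, called genes are named, up to 8 a direction by size, except 1 that is not reported here. The members and lists were chosen with earlier results of these data known. *Prim1*, *Rfc2* and *Uhrf1*, and the remaining members given by their estimates, were named to account for the set. Alternatives were DESeq2 1.42.0, 2 other scalings, 2 filters, length offsets, 2 other thresholds and leaving out each library. A fit without BMP7 3 and 4 was added after seeing the data.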

Additional observations from a re-analysis of the deposited data

How the results depend on the processing

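*Dut* (log2 fold change between -0.47 and -0.36) and *Pold2* (0.46 to 0.64) kept their calls, and no called gene changed sign, in all 13 alternative fits. Of these, the fit without BMP7 replicates 3 and 4 has 1 BMP7 library, assumed to vary like Ctrl, and is no test of stability. *Cdc6* and *Pold1* lost their calls in that fit alone. *Cdt1* and *Gins3* were gained with upper-quartile scaling, which moved the share of calls that were lower from 47.3 to 53.0% of all called genes, and *Tk1* without Ctrl 1. Leaving out each library in turn gave 3 (without Ctrl 2) to 10 (without BMP7 1) genes of the set lower, a median of the set between -0.20 and -0.13, 5 to 9 other replication genes lower and 1 to 2 higher, 1 to 3 mitosis genes higher, and 563 (without Ctrl 2) to 902 of all genes lower. Without BMP7 3 and 4, 1 gene of the set and 2 other replication genes were lower, and the median of the set was -0.0804. By adjusted p alone, 11 genes of the set were lower and 5 mitosis genes higher. At a fold of 1.5, 0 genes of the set were lower and 0 higher, 0 other replication genes were lower and 1 higher, 0 mitosis genes were higher, and 304 of all genes were lower and 476 higher. Upper-quartile scaling and DESeq2 each gave 1 other replication gene higher. With at least 10 counts in every library, the slopes on length were -0.047 in BMP7 1, 0.015 in BMP7 4, 0.013 in Ctrl 1 and 0.010 in Ctrl 3. The cause of these shifts was not tested, apart from the thresholds, which set their own counts. No paired analysis was possible because the BMP7 columns are numbered 1, 3 and 4 while the labels number these samples otherwise, so no BMP7 library could be matched to a Ctrl library. With 3 libraries a group, *Fen1* had the fewest counts of the set, at 32 in its lowest library. The parts of depth and of its exon overlap in that low count were not tested.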
